A study of Mus musculus with 2 samples.

Results

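Outer segment disc structure genes were followed through 9 members: Prph2, Rom1, Prom1, Cdhr1, Rp1, Reep6, Unc119, Aipl1 and Kcnv2. A member's values are those of every probe set whose platform gene symbol is that gene alone, which gave 11 probe sets out of 34945 with 1 gene symbol, and 9 genes out of 18193. The arrays (Affymetrix Mouse 430 2.0, short oligonucleotide probes grouped into probe sets) read total RNA of mouse eye cups at postnatal day 13. The first group is 1 array of RNA pooled in equal amounts from 6 Mfsd2a KO animals, and the second is 1 array of RNA pooled likewise from 6 wild-type animals. Both groups share the age and the dissection, in which the cornea, the lens and the optic nerve were cut away and the cup was frozen. The labels do not give the strain, the sexes or the part of Mfsd2a that was deleted. Mfsd2a encodes a lysophosphatidylcholine transporter that supplies brain and eye with docosahexaenoic acid.

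The light-sensing outer segment of a rod or cone is a modified cilium filled with stacked membrane discs, which are rich in phospholipids that carry docosahexaenoic acid. In mice the outer segments are still growing at this age. Discs form as outgrowths of the membrane at the base of the outer segment, their rims are bent and held by tetraspanin proteins, and a microtubule axoneme runs alongside the stack. Reep6, Unc119, Aipl1 and Kcnv2 are not disc structure proteins in the strict sense: they serve membrane traffic, the folding or delivery of outer segment proteins, and a potassium current of the inner segment.

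The deleted gene was read first as a check of the labels. The 1 probe set of Mfsd2a read 244 on the array labelled knockout and 181 on the wild-type array, a log2 difference of 0.43. The direction goes against the label, and where its probes lie relative to the deleted part was not analysed here, so the sample is called the array labelled knockout and every direction below rests on that label. Each genotype has a single pooled array and hence no replicate spread, so no test was made and differences are described by size only. The rod markers, which check that the tissue holds photoreceptors, summed to 69212 on the array labelled knockout and 69894 on the wild-type array over the 6 measured of 8 listed, of which 2 were not analysed here. In a bulk sample, fewer cells of a type and less RNA per cell cannot be told apart.

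All 9 members were read above the floor, which is each array's median intensity over probe sets that are not controls (93.4 on the array labelled knockout and 94.2 on the wild-type array). Their differences were small. By the brightest probe set of each gene, 6 members were below 0 and 3 above 0 on the array labelled knockout, with a median log2 difference of -0.0088 and a range of -0.15 for Reep6 to 0.16 for Kcnv2. Among all 11568 genes above the floor, 42.4% were below 0 and 55.8% above 0, and the median was 0.014. No member reached the 1.2-fold size used for counting, against a background of 1.17% of genes at least 1.2-fold lower and 1.79% at least 1.2-fold higher. At 1.1-fold, 1 member was lower (Reep6) and 1 was higher (Kcnv2), where 6.6% of all genes were lower and 9.83% higher by that much.

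**Figure D1:**
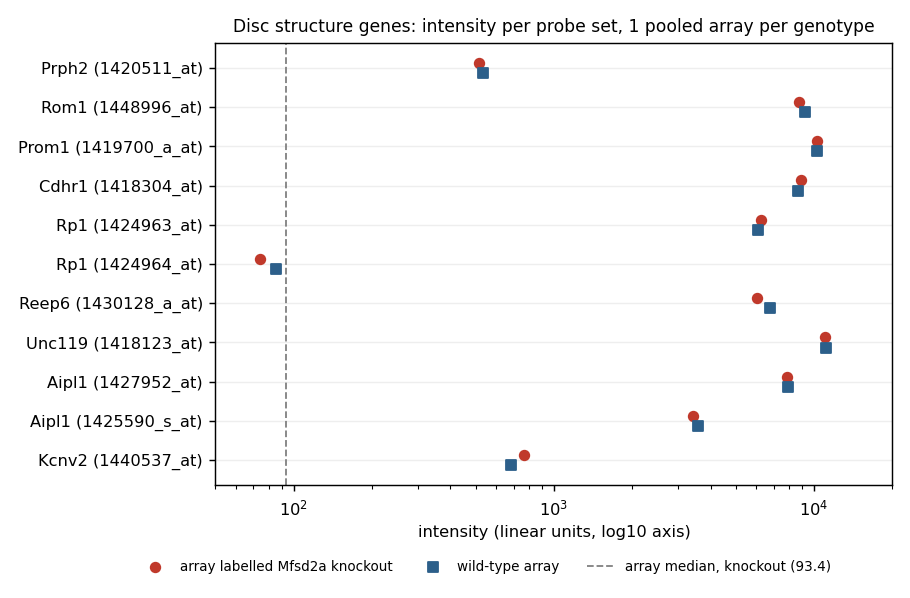
Intensity on a log10 axis of the 11 probe sets of the disc structure genes, with circles for the array labelled knockout and squares for the wild-type array (1 pooled array each, so no error bars). The marks of each probe set lie close together, and the second probe set of Rp1 alone lies left of the dashed line at 93.4.

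The tetraspanins Prph2 and Rom1 form the complexes that bend and hold the disc rim. The 1 probe set of Prph2 (1420511_at), which encodes peripherin 2, read 514 on the array labelled knockout and 532 on the wild-type array, a log2 difference of -0.052. Rom1 (1448996_at), which encodes the partner of peripherin 2 in these complexes, read 8780 on the array labelled knockout and 9209 on the wild-type array, a log2 difference of -0.069. Both rim genes were slightly lower, each by less than 0.0886, the SD of log2 differences between probe sets of the same gene over the 5201 genes with at least 2 above the floor. That SD is called the technical SD below. It is the only spread between readings of the same gene here, and it is pooled over all intensities above the floor. It compares probe sets on the same 2 arrays, so it leaves out what shifts all probe sets of a gene together. The pools, the dissection and the arrays are of that kind, so the error of a gene's difference can be larger.

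The sequence before the start site is shown for these rim partners and for Aipl1, so that the letters upstream of the genes compared can be read. Each line holds the 250 bases before the start site on the gene's own strand, 5' to 3', from RefSeq, build GRCm38.p6. Capitals mark TAATC, the core read by the photoreceptor homeodomain factor CRX, or its reverse complement GATTA. The regions are chr17:46910228-46910477 (plus strand) for Prph2, chr19:8929357-8929606 (minus strand) for Rom1 and chr11:72037510-72037759 (minus strand) for Aipl1.
Prph2: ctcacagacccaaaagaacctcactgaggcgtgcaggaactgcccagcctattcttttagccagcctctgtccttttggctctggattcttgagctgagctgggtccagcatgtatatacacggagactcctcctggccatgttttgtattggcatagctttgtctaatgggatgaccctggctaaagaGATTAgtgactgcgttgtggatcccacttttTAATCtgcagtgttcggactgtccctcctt
Rom1: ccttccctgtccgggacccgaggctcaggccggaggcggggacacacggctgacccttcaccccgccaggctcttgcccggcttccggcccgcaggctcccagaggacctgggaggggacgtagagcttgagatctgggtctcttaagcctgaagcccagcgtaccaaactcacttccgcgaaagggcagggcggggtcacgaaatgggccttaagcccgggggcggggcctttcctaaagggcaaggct
Aipl1: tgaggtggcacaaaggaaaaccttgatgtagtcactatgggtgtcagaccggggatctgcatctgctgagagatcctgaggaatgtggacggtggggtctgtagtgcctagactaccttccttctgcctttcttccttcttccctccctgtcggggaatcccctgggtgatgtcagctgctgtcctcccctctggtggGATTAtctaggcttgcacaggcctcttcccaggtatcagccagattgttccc
Prph2 holds the core 30 bases before the start and, on the other strand, 61 bases before it. Aipl1 holds it on the other strand 52 bases before the start, and the window of Rom1 does not contain these letters.

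RefSeq promoters were matched for 6 of the 9 members, with 9 start sites in all. Of the 9 windows, 4 held TAATC on either strand, from Prph2, Prom1, Unc119 and Aipl1, against 19.8% of all 32851 promoter windows of the same length. The longer TAATCC, which lies within that core's matches, was in 2 of the 9 windows (Unc119 and Aipl1) and in 6.25% of all. CTAATC, which overlaps the same core, was in 2 (Prph2 and Unc119) and in 5.71% of all. TAATTA was in 0 of the 9 and in 4.84% of all. TGCTGA, part of the site read by the rod factor NRL, was in 2 (Unc119 and Aipl1) and in 16.1% of all. In Unc119 the letters of the NRL site and those of the core lay in windows of different start sites. Not every window of Prom1 and Unc119 held the core. All of the matches above are letter matches on both strands, described without a claim of binding.

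Prom1, Cdhr1 and Rp1 act where new discs form and along the axoneme. Prom1 (1419700_a_at) encodes prominin 1, a membrane protein of the new discs at the base of the outer segment, and read 10258.1 on the array labelled knockout and 10271.5 on the wild-type array. Its log2 difference of -0.0019 was the one nearest to 0 among the members. Cdhr1 (1418304_at) encodes the photoreceptor cadherin, which lies at the same base and has been tied to disc formation. It read 8885 on the array labelled knockout and 8647 on the wild-type array, a log2 difference of 0.039.

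Rp1 encodes a microtubule-binding protein of the axoneme that is needed for the orderly stacking of discs. Its brighter probe set (1424963_at) read 6268 on the array labelled knockout and 6110 on the wild-type array, a log2 difference of 0.037. Its other probe set (1424964_at) read 74.0 on the array labelled knockout and 85.7 on the wild-type array, a log2 difference of -0.21. The second set lay below the floor on both arrays and gave the opposite sign, so that the mean of both sets was -0.087. The direction of Rp1 therefore depends on which probe set is read.

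Reep6 encodes a protein that shapes endoplasmic reticulum membranes and serves membrane traffic in rods. Its 1 probe set (1430128_a_at) read 6056 on the array labelled knockout and 6742 on the wild-type array, a log2 difference of -0.15 or 1.11-fold lower. This is 1.75 times the technical SD and the lowest value among the members above the floor. Of the 267 probe sets at or above an intensity of 5000 on both arrays, a limit chosen after the values were seen, the central 95% lay between -0.17 and 0.11, and 7 of them belong to the members. Reep6 lay near the lower end of that range and inside it.

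Unc119 and Aipl1 encode chaperones of phototransduction proteins: the first binds the lipid-modified alpha subunit of transducin, and the second helps the rod phosphodiesterase to fold and assemble. Unc119 (1418123_at) read 10969.2 on the array labelled knockout and 11118.2 on the wild-type array, a log2 difference of -0.019. Aipl1 was read by 2 probe sets above the floor. The brighter (1427952_at) read 7874 on the array labelled knockout and 7922 on the wild-type array, a log2 difference of -0.0088. The other (1425590_s_at), whose name marks possible cross-hybridisation, read 3430 on the array labelled knockout and 3571 on the wild-type array, a log2 difference of -0.058. Both sets of Aipl1 were slightly lower and neither by as much as the technical SD.

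Kcnv2 encodes a modulatory subunit of voltage-gated potassium channels in the inner segments of photoreceptors. Its 1 probe set (1440537_at) read 765 on the array labelled knockout and 687 on the wild-type array, a log2 difference of 0.16 or 1.11-fold higher. It was the highest value among the members, at 1.76 times the technical SD. With Reep6 it made up the 2 members past that SD, in opposite directions, while the other 7 lay within it. The share of all genes past that SD was not counted, so the 2 are not shown to stand out. At the larger 1.1-fold size, 6.6% of all genes were lower and 9.83% higher.

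**Figure D2:**
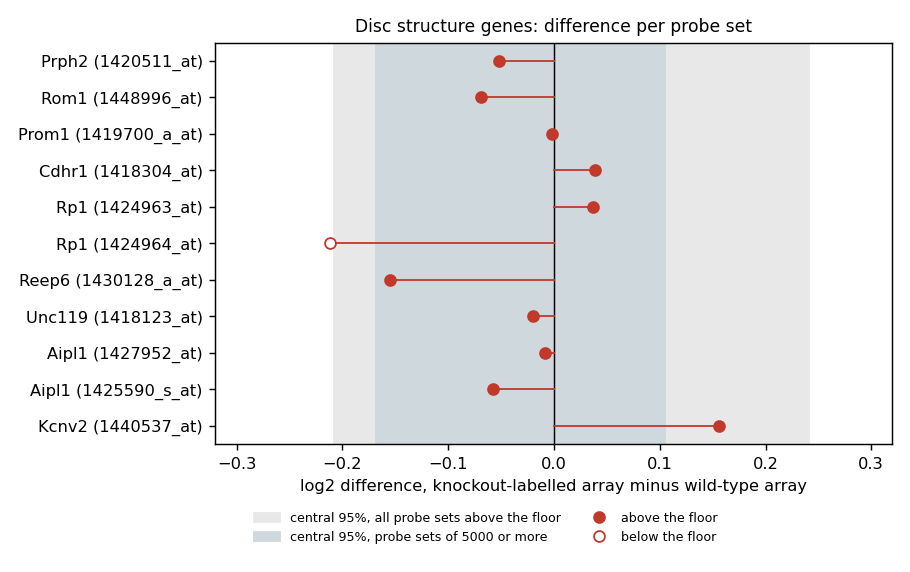
Log2 difference of each probe set, knockout-labelled array minus wild-type array, with filled circles above the floor and an open circle below it. The light band is the central 95% of all 20105 probe sets above the floor (-0.21 to 0.24) and the darker band that of the 267 probe sets of 5000 or more (-0.17 to 0.11); the 10 filled circles all lie inside the light band.

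Counted by probe set, 10 of the 11 passed the floor. Of those 10, 7 were below 0 and 3 above 0, with a median of -0.014, against 42.1% below 0, 55.9% above 0 and a median of 0.016 over the 20105 probe sets above the floor. Of the 10, 0 lay outside the central 95% of all probe sets and 0 reached 1.2-fold, where 1.15% of all were at least that much lower and 1.85% higher. At 1.1-fold 1 was lower and 1 higher, where 6.98% of all were lower and 11% higher. A total of 7 members were read by 1 probe set each, so for them no second probe set can be set beside the value.

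**Figure D3:**
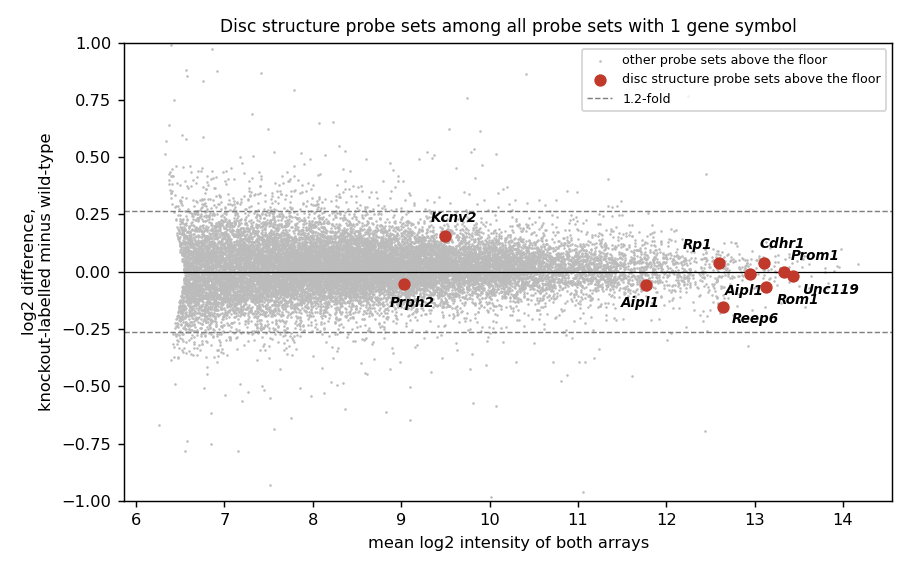
Log2 difference, knockout-labelled array minus wild-type array, against the mean log2 intensity of both arrays for the 20105 probe sets above the floor (grey, of which 8 lie beyond the plotted range of -1 to 1) and the 10 of the disc structure genes (red, named). The dashed lines mark 1.2-fold, and all 10 red points lie between them.

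Other genes tied to the outer segment made a list of 25, called other outer segment genes below. Not all of them encode proteins of the outer segment itself. Of the 25, 22 were above the floor, 1 was below it and 2 were not analysed here. Of the 22, 15 were below 0 and 7 above 0, with a median of -0.023, and 0 reached 1.2-fold in either direction. Over all genes above the floor, 42.4% were below 0, 1.17% at least 1.2-fold lower and 1.79% at least 1.2-fold higher. Abca4, the retinoid flippase of disc rims, read 2530 on the array labelled knockout and 2909 on the wild-type array, a log2 difference of -0.20. Slc24a1, the rod sodium, calcium and potassium exchanger, differed by -0.19, and Rdh12, a photoreceptor retinol dehydrogenase, by -0.13. These were the lowest of the list. At the other end Tmem30a, the subunit that partners lipid flippases, read 2142 on the array labelled knockout and 1826 on the wild-type array, a log2 difference of 0.23. This is the brightest of its 5 probe sets, and the others are not given here. Prcd, a small disc protein, differed by -0.084, Rp1l1, the relative of Rp1 in the axoneme, by 0.062, and Cngb1, the channel subunit that links the plasma membrane to the disc rim, by 0.00084.

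The proteins that Unc119 and Aipl1 serve, with other lipid-modified proteins and cofactors of the same traffic, made a list of 13 with 12 above the floor and 1 not analysed here. Of the 12, 8 were below 0 and 4 above 0, with a median of -0.058, where 42.4% of all genes were below 0. At least 1.2-fold lower were 1.17% of all genes. The phosphodiesterase subunits of rods differed by -0.14 for Pde6a, 0.018 for Pde6b and -0.051 for Pde6g, and the cone subunit Pde6c by 0.091. The cone transducin subunit Gnat2 differed by -0.16, and Rp2, which acts on the GTPase that releases cargo from Unc119, by 0.18. The value of Rp2 is that of the brightest of its 5 probe sets alone. Grk1, the rhodopsin kinase, was the 1 gene of the list past 1.2-fold: it read 510 on the array labelled knockout and 641 on the wild-type array, a log2 difference of -0.33. Grk1 has 1 probe set, so no second reading can be set beside this value.

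Relatives of the members in sequence made a list of 16, of which 9 were above the floor, 6 below it and 1 not analysed here. Of the 9, 3 were below 0 and 6 above 0, with a median of 0.059, where 55.8% of all genes were above 0. At least 1.2-fold higher were 1.79% of all genes. The relatives of Reep6 differed by -0.014 for Reep1, 0.044 for Reep2, 0.18 for Reep3, -0.24 for Reep4 and -0.092 for Reep5, so that they lay on both sides of 0. The value of Reep3 is that of the brightest of its 6 probe sets alone. That of Reep4 rests on 1 probe set not far above the floor (115 on the array labelled knockout and 136 on the wild-type array). Dcx, which carries the same type of microtubule-binding domain as Rp1 and is known from young neurons, was the 1 relative past 1.2-fold. It read 176 on the array labelled knockout and 137 on the wild-type array, a log2 difference of 0.37. This rests on the brightest of its 4 probe sets: their mean difference was 0.098 and their mean level lay below the floor, and a floor set to the 70th percentile left Dcx out. Of 7 listed potassium channel partners, 1 was above the floor, 2 were below it and 4 were not analysed here. The 1 read, Kcnc1, differed by -0.095. No test of a difference between these lists and the disc structure genes is possible with 1 array per genotype.

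Markers of other cells of the eye also differed between the pools, some by more than any member did. The marker named for each list is its value furthest from 0, and so not typical of the list. For the counts here and in the next paragraph, 42.4% of all genes were below 0 and 55.8% above 0. Rod markers had 4 of 6 below 0 and a median of -0.019, with Gnat1, the rod transducin subunit, at -0.079. Without Gnat1 the rod sums were 53284 on the array labelled knockout and 53072 on the wild-type array. Cone markers had 4 of 6 below 0, a median of -0.062 and summed levels of 12277 on the array labelled knockout and 13191 on the wild-type array, with the opsin Opn1mw at -0.28. The genes listed as bipolar cell markers had 3 of 4 above 0 and a median of 0.072, with Otx2 at 0.14. Without Otx2 the median of that list was 0.012. Mueller glia markers had 4 of 6 below 0 and a median of -0.036, with the glutamate transporter Slc1a3, at 0.21, on the other side from most of the list. The value of Slc1a3 is that of the brightest of its 6 probe sets alone. Gnat1, Pde6b, Gnat2, Pde6h and Cnga1 stand both in a marker list and in a list above. The part of these cell types in the members' differences was not tested.

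By list median, the markers of tissues around the retina stood further apart. Pigment epithelium markers had 4 of 5 below 0, a median of -0.30 and summed levels of 26486 on the array labelled knockout and 28193 on the wild-type array, with Rdh5 at -0.34. Most of both sums came from Ttr, named after its values were seen and the 1 marker above 0 (0.019). It read 16009.5 on the array labelled knockout and 15804.0 on the wild-type array. Cornea markers had 6 of 6 below 0, a median of -0.46 and summed levels of 1111 on the array labelled knockout and 1461 on the wild-type array, with Aldh3a1 at -0.62. Aldh3a1 was above the floor on the wild-type array alone (92.8 on the array labelled knockout and 142 on the wild-type array), and the 5 others, above it on both arrays, were all below 0 with a median of -0.40. Skeletal muscle markers had 4 of 6 below 0, a median of -0.20 and summed levels of 2388 on the array labelled knockout and 2584 on the wild-type array, with Pvalb at -0.61. Without Pvalb the sums were 2021 and 2022, and Myh1 (0.22) and Acta1 (0.029), named after their values were seen, lay above 0. Lens markers had 4 of 5 above 0, a median of 0.35 and summed levels of 1635 on the array labelled knockout and 1389 on the wild-type array, with Cryga at 0.40. The 1 lens marker below 0 was above the floor on the wild-type array alone, and the other 4 had a median of 0.36. No marker was at 0. In these pools the genotype cannot be told apart from the dissection or the handling of the arrays.

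**Figure D4:**
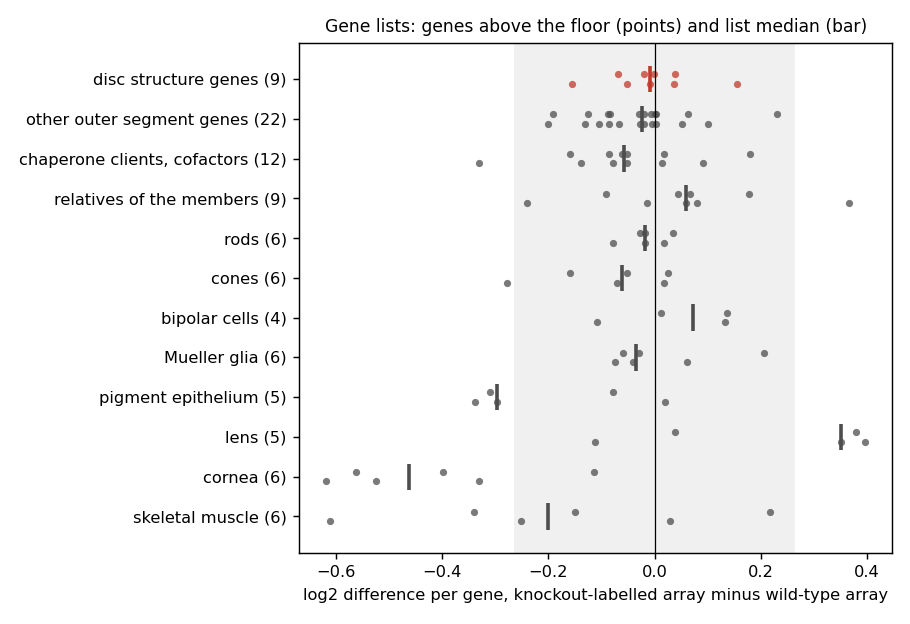
Log2 difference per gene, knockout-labelled array minus wild-type array, for genes above the floor (points, their number in brackets), with a bar at each list's median and shading out to 1.2-fold on either side. The 9 disc structure genes lie within the shading around a median of -0.0088, while the cornea list has a median of -0.46 and the lens list 0.35.

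Under 8 alternatives for the floor, the probe sets and the scaling, 8 of the 9 members kept 1 sign wherever they were read (Prom1 and Reep6 have no probe set left when those ending in _a_at are left out). Rp1 ran from -0.087 to 0.037 and was the exception, through the mean of its probe sets. Reep6 ran from -0.17 to -0.15, Kcnv2 from 0.14 to 0.16, Prph2 from -0.072 to -0.049 and Rom1 from -0.083 to -0.068. The 7 members with 1 probe set could change only through loess, centring or the pseudocount. Other floors and probe set rules leave their values as they are or drop them.

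**Figure D5:**
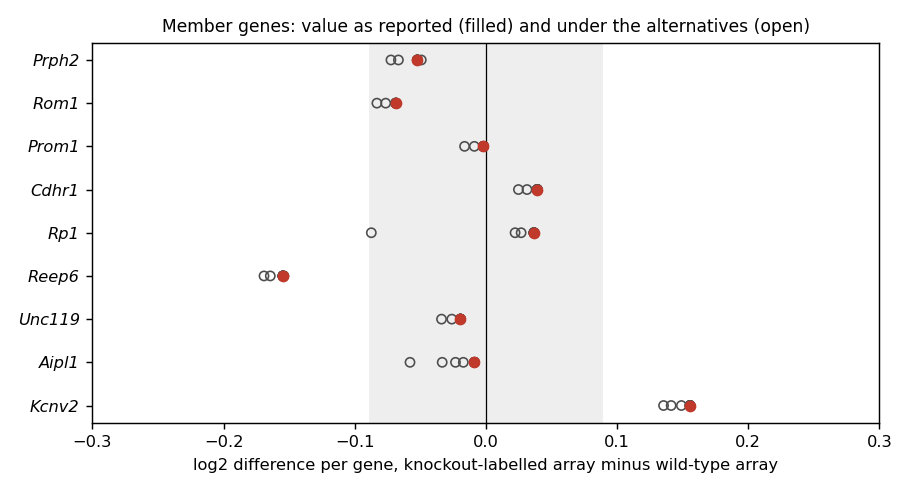
Log2 difference per member gene, knockout-labelled array minus wild-type array, as reported (filled) and under the alternatives (open), with shading to 1 technical SD (0.0886) on either side of 0. Reep6 and Kcnv2 stay outside the shading at every setting that read them, but most settings cannot alter a gene with 1 probe set. The share of all genes outside the shading was not counted. Rp1 has 1 open circle on the other side of 0.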

How the data were processed

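The authors deposited linear intensities, 1 per array for each of 45101 probe sets. They were made with RMA (robust multi-array averaging) and Partek 6.6, per the submitters' processing notes; the settings are not given in the sources used here. RMA puts the arrays on 1 distribution, which removes overall differences between them, and it shrinks differences of dim probe sets. That the scale is linear was seen from the range (5.07 to 20568 on the array labelled knockout, 5.15 to 20644 on the wild-type array), which were not centred. The files name no genome build.

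Base 2 logarithms were taken, and differences are knockout-labelled array minus wild-type array. Symbols came from the platform annotation, and 9 of 9 members matched RefSeq by identifier. A gene took its brightest probe set by mean, and counted as measured when either value reached that array's median over non-control probe sets. The number of arrays limits the precision. Named were all member probe sets, Mfsd2a, up to 8 genes per pathway list (the first 4 and the 4 furthest from 0) and, per cell type, the 1 marker furthest from 0. The members and lists were chosen with earlier results of these data known. Alternatives were other floors, loess (span 0.3, 3 iterations), centring, a pseudocount of 32, other probe set rules and other sizes. Python 3.11.15, numpy 2.4.6, pandas 2.3.3 and statsmodels 0.14.6 were used. The floor, difference and brightest probe set steps were also run on simulated data. The planted differences were larger than those of the members, so that run does not cover differences of their size.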

Additional observations from a re-analysis of the deposited data

How the results depend on the processing

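No paired analysis was possible because there is 1 pooled array on each side. The cause of each change here was not tested, apart from the fewer or more genes that a floor, a size or a probe set rule leaves. At a size of 1.1-fold in place of 1.2-fold, 1 member gene was lower and 1 higher (also 1 and 1 by probe set), other outer segment genes had 2 lower and 1 higher, chaperone clients 3 lower and 1 higher, and relatives 1 lower and 2 higher. Over all genes, 6.6% were at least 1.1-fold lower and 9.83% at least 1.1-fold higher. At 1.5-fold the clients had 0 lower and the relatives 0 higher. Without probe sets ending in _s_at, _x_at or _a_at, 4 of the 7 member probe sets left were below 0, and Prom1 and Reep6 were not read. With no floor, 9 of 15 relatives were below 0 with a median of -0.029 and 1 lower by 1.2-fold, and 2 of 3 potassium channel partners were below 0. Dcx was lost from the count, so the relatives had 0 higher when the floor was the 70th percentile, and 0 higher with the mean of probe sets. With the probe set of the largest difference, 1 other outer segment gene was higher and 1 relative was lower. Of the 70 values of single member genes under the alternatives, 69 moved by less than the technical SD, and Rp1 with the mean of probe sets, at -0.087, did not. Many of the 70 could not move, because floors and probe set rules leave a gene with 1 probe set as it is. In all, 256 of 278 recomputed values stayed within the technical SD or, for counts, within 1.5 times. That total holds many counts that stayed at 0 and many values that the setting could not alter, so it is no measure of robustness. With 1 array per genotype, differences of the members' size cannot be set against a spread between animals.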
